A study of Arabidopsis thaliana with 7 samples.

Results

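Roots of a transgenic Arabidopsis thaliana line that carries an ANR1-GR fusion were compared with wild-type roots. All 7 Affymetrix ATH1 arrays of the series entered the comparison, 3 from the line and 4 from the wild type, chosen by the genotype in the sample labels. The line, ANGR4-12, is labelled as the C24 ecotype. It carries ANR1 fused to the rat glucocorticoid receptor (GR) behind the 35S promoter, which is active in most plant cells, and the labels call the fusion strongly expressed. It is a single line. For the wild type the labels give a stock code but no ecotype name, so the transgene, its insertion and any difference in background cannot be told apart. All plants had been starved of nitrogen for 2 days and were moved, after 9 days, to plates with 0 or 1 µM dexamethasone for 1 h. Each array held root RNA pooled from 20 plants. The untreated line and the untreated and treated wild type had an array in each of 2 biological replicates, and the treated line had an array in replicate 2 only.

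ANR1 is a transcription factor of the MADS-box family, known for its part in lateral root growth in response to local nitrate. AGL16 and AGL21 belong to the same clade of that family. A protein fused to the hormone-binding part of GR is generally held in the cytoplasm until a steroid such as dexamethasone lets it enter the nucleus. No probe set on the array was paired with ANR1 in the platform annotation, so ANR1 itself could not be checked in the line. The annotation leaves out 8794 probe sets, and whether any of them reads ANR1 is not known here.

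The deposited values are linear signals per probe set, and the median over the 10183 tested probe sets ran from 126.0 to 133.9 on the 7 arrays. Of these probe sets, 5290 were paired with 1 gene, and the others are given by their probe set IDs. Differences are line minus wild type on log2(signal + 16), in a limma model with dexamethasone as an additive term and the replicate number as a block. The model thus gives a single line difference for the untreated and treated line arrays together. A log2 difference on this scale understates the change of dim probe sets. The values within a replicate come from 3 pairs of arrays that share no array, namely the untreated arrays of replicate 1, the untreated arrays of replicate 2 and the treated arrays of replicate 2.

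The line and the wild type differed at 1 probe set past an adjusted p of 0.05, and it was higher in the line. It passed the filter, a mean signal of at least 50 over the 7 arrays, only through the line, since all 4 wild-type arrays lay under that level. With no filter on low signals limma called 0 probe sets. Of the 22810 deposited probe sets less 64 controls, 700 then had an unadjusted p under 0.05, beside 162 of the 10183 that passed the filter. The annotation pairs this probe set with no gene, so whether it reads the transcript of the fusion could not be checked. Its signal in the line was 951.3 in the untreated array of replicate 1, 303.0 in the untreated array of replicate 2 and 698.8 in the treated array. In the wild type it was 10.4 and 23.5 in the untreated arrays of replicates 1 and 2, and 13.8 and 9.4 in the treated ones. The lowest line array was thus far above the highest wild-type array, with means of 651 ± 327 (SD, n = 3) and 14.3 ± 6.43 (SD, n = 4). The log2 difference was 4.41 ± 0.35 (SE) against a wild type near the bottom of the scale, with a limma adjusted p of 0.0135 with the filter and 0.221 without it. In whole roots, more cells with a transcript and more of it per cell cannot be told apart. It was 5.2 in replicate 1, 3.01 in untreated replicate 2 and 4.81 in treated replicate 2.

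The call of this unpaired probe set depended on the arrays, although its direction did not change under any of the 20 alternatives run. Its limma adjusted p rose to 0.358 without the untreated line array of replicate 1, to 0.192 without the treated line array and to 0.180 without the untreated wild-type array of replicate 1. Without the treated wild-type array it was 0.0890 for replicate 1 and 0.0974 for replicate 2. The estimate in these fits, on the log2 scale, was never under 3.91.

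Over all tested probe sets, the share called at an adjusted p of 0.05 was 0.00982% higher and 0.0% lower in the line. At an unadjusted p of 0.05, limma gave 93 probe sets higher (0.913%) and 69 lower (0.678%), 162 in all or 1.59%. That is a smaller share than a cut of 0.05 would give with no difference at any probe set. In 3 pairs, 805 probe sets were higher in the line each time (7.91%) and 651 were lower each time (6.39%), which together is 14.3%. The 3 line arrays lay entirely above the 4 wild-type arrays for 116 probe sets (1.14%) and entirely below for 89 (0.874%), which together is 2.01%. Of the tested probe sets, 114 had a wild-type mean under 50 and 135 a line mean under 50, and passed the filter through the other genotype.

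A log2 difference of at least 0.5 in the same direction in all 3 pairs was met by 3 higher probe sets (0.0295%) and 2 lower ones (0.0196%). The higher ones were the called probe set, 265456_at and 266690_at, none of them paired with a gene. The lower ones were the probe set of AT4G22450 and another that is paired with no gene.

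AT4G22450, which RefSeq lists as a pseudogene, had the lowest fitted log2 difference among the probe sets that passed the filter. Its signal was 45.2 in the untreated line array of replicate 1, 70.7 in that of replicate 2 and 69.7 in the treated line array. The wild-type arrays read 170.2, 155.4, 163.2 and 155.5, in the order untreated replicates 1 and 2, then treated replicates 1 and 2. The wild-type values were close together and all above the line. The log2 difference was -1.22 ± 0.14 (SE), with pair values of -1.61, -0.98 and -1.0. It did not pass, with a limma adjusted p of 0.134. It passed in only 4 of the 20 alternatives run. Among these were the fits with dexamethasone left out of the model (limma adjusted p 0.0281) and with the untreated line array of replicate 2 left out (0.0149). Its probe set ends in _s_at, a suffix for probes that can read more than 1 transcript.

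The other lower probe set read 109.6, 126.8 and 146.9 in the line, in the order untreated replicate 1, untreated replicate 2 and treated replicate 2. It read 217.6 and 302.0 in the untreated wild type and 174.1 and 261.4 in the treated wild type, so that the arrays did not overlap. The log2 difference was -0.90 ± 0.13 (SE), with a limma adjusted p of 0.368. The pair values were -0.90, -1.16 and -0.77.

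265456_at read 1062.9, 640.3 and 692.2 in the line in the same order, and 673.9, 361.7, 543.3 and 412.4 in the wild type (untreated replicates 1 and 2, treated replicates 1 and 2). The ranges overlapped because replicate 1 was brighter in both genotypes, but in each pair the line was higher, by 0.65, 0.80 and 0.73 on the log2 scale. Its log2 difference was 0.77 ± 0.12 (SE), with a limma adjusted p of 0.556. 266690_at was dimmer, at 71.8 to 91.6 in the line and 41.0 to 58.5 in the wild type, and its arrays did not overlap. It passed the filter only through the line, with a wild-type mean of 47.05. Its log2 difference was 0.65 ± 0.12 (SE), with a limma adjusted p of 1.00.

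**Figure D1:**
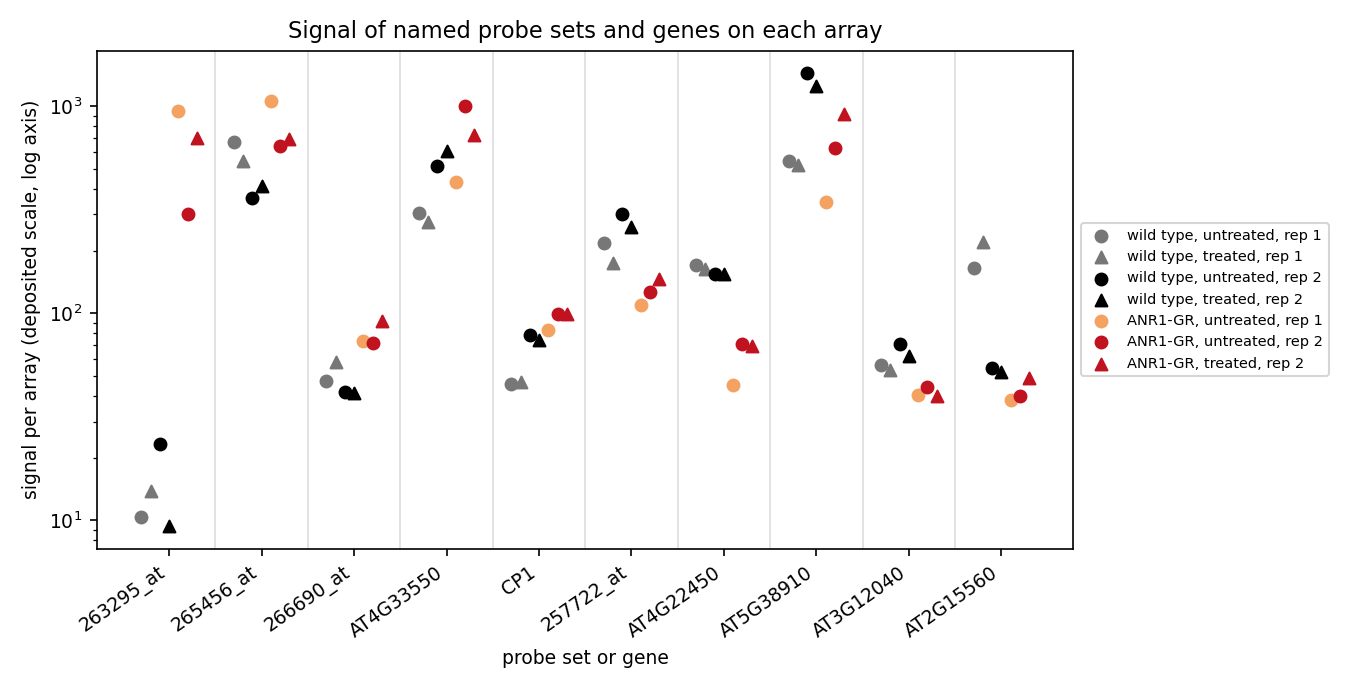
Signal on each of the 7 arrays (log axis, deposited scale) for 10 probe sets or genes, with circles for untreated and triangles for treated roots. The called probe set, leftmost, lies at 303.0 to 951.3 in the line and at 9.4 to 23.5 in the wild type, and AT4G22450 at 45.2 to 70.7 against 155.4 to 170.2.

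Named genes that kept 1 direction in all 3 pairs had smaller differences, and none of them passed the test (limma adjusted p = 1.00 for each gene in this and the next 3 paragraphs). AT5G38910, a germin-like protein, read 345.8 in the untreated line of replicate 1 against 543.4 in the untreated wild type. In replicate 2 it read 627.9 against 1440.6 untreated, and 921.3 against 1246.5 treated. It was brighter in replicate 2 in both genotypes and lower in the line each time, with a log2 difference of -0.71 ± 0.15 (SE).

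AT3G12040, a DNA-3-methyladenine glycosylase of base excision repair, read 40.1, 44.2 and 39.9 in the line and 53.1 to 71.2 in the wild type, and its log2 difference was -0.46 ± 0.10 (SE). AT5G01610 read 61.1 to 82.0 in the line and 96.9 to 109.5 in the wild type, and its log2 difference was -0.48 ± 0.12 (SE). ty2, a plastid thioredoxin of the y type, read 39.2 to 40.9 in the line and 51.1 to 69.9 in the wild type, with a log2 difference of -0.44 ± 0.13 (SE). AT3G12040 and ty2 passed the filter only through the wild type, with line means of 41.4 and 39.9 under the level of 50. In these 3 genes the arrays of the line and the wild type did not overlap, which a choice by pairs of 1 direction favours. The same was true of 250672_at, paired with no gene, at 48.6 to 56.5 in the line and 71.5 to 78.3 in the wild type, with a log2 difference of -0.43 ± 0.10 (SE).

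AT3G13610, the feruloyl-CoA hydroxylase of scopoletin synthesis in roots, was bright in every array. It read 890.0, 1186.4 and 1247.4 in the line and 1107.7, 1547.1, 1089.8 and 1528.7 in the wild type (untreated replicates 1 and 2, treated replicates 1 and 2). Its pair values of -0.31, -0.38 and -0.29 were close together, around a log2 difference of -0.32 ± 0.089 (SE), although the arrays overlapped.

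On the higher side, AT4G33550, a protein like the lipid-transfer proteins, read 429.9, 1003.2 and 725.7 in the line against 306.4, 513.4 and 605.7 in the matched wild-type arrays. Its log2 difference was 0.55 ± 0.14 (SE), and its pair values ran from 0.25 to 0.95. AT2G37870, of the same kind, had pair values of 0.36, 0.69 and 0.12 and a log2 difference of 0.39 ± 0.13 (SE). CP1, a papain-type cysteine proteinase, read 83.0 to 99.7 in the line and 45.6 to 78.7 in the wild type without overlap, and its log2 difference was 0.45 ± 0.12 (SE). AT3G17740, AT1G44790 and AT5G21070 were higher by 0.41, 0.38 and 0.34 on the log2 scale, each with overlapping arrays.

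**Figure D2:**
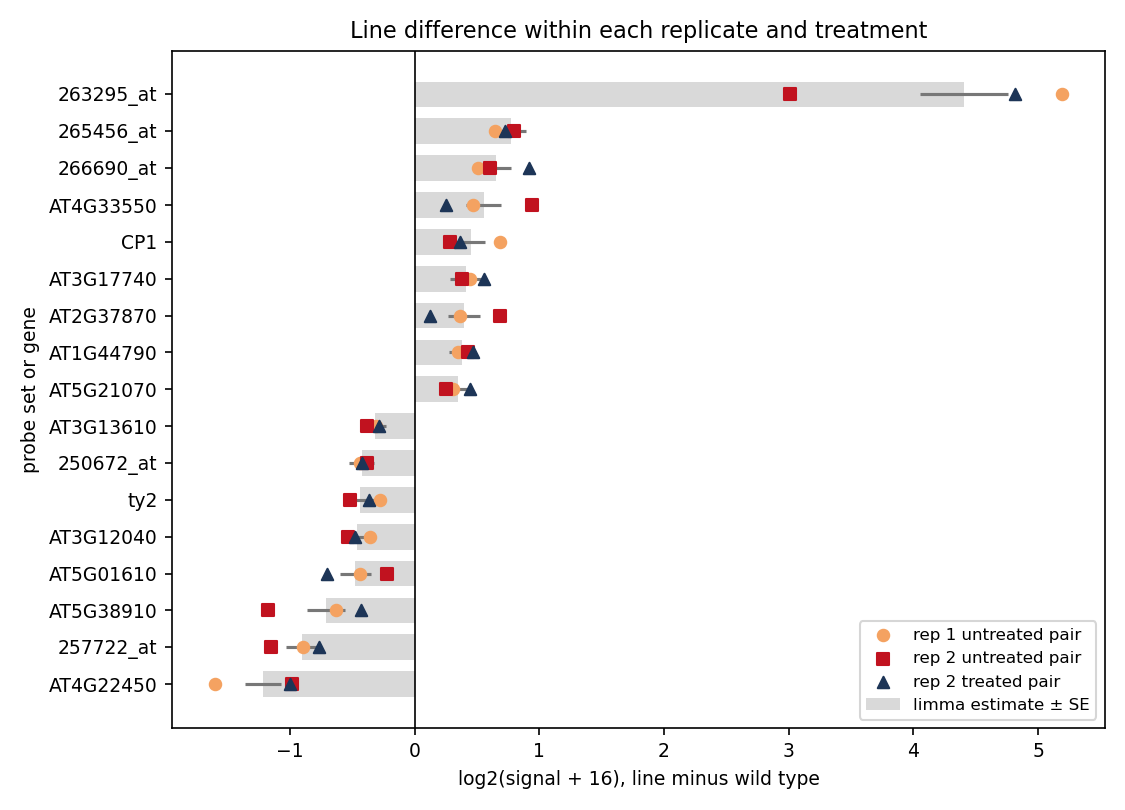
Log2 difference of line minus wild type for 17 probe sets or genes, with bars for the limma estimate over 7 arrays, lines for its SE and points for the 3 pairs. The points of each row lie on the same side of 0, as the rule that named them requires, and the called probe set at 4.41 stands apart from the others, which lie between -1.22 and 0.77.

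Beyond these genes, the size of the difference depended on the pair. A difference of at least 2-fold on this scale was found for 10 probe sets in the untreated pair of replicate 1 (0.0982%), for 152 in the untreated pair of replicate 2 (1.49%) and for 49 in the treated pair of replicate 2 (0.481%). Of these, 8, 144 and 2 were lower in the line. For scale, treated and untreated wild type differed as much for 1 probe set in replicate 1 (0.00982%) and for 27 in replicate 2 (0.265%). Treated and untreated line differed as much for 178 in replicate 2 (1.75%). Between replicates 1 and 2, arrays of the same genotype and treatment differed as much for 169 to 561 probe sets (1.66% to 5.51%). The SD of the log2 difference over all tested probe sets was 0.231, 0.363 and 0.280 in the 3 pairs.

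In replicate 2 the untreated and treated pairs went opposite ways. Across the 10183 probe sets their log2 differences had a Pearson r of -0.537 and a Spearman rho of -0.498, and 32.2% had the same sign. The untreated pairs of replicates 1 and 2 had r = -0.216 and rho = -0.238, with 42.1% of the same sign, and the untreated pair of replicate 1 and the treated pair of replicate 2 had r = 0.185 and rho = 0.133, with 53.9%. Probe sets are not independent, and both pairs of replicate 2 share that replicate.

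The 144 probe sets lower at least 2-fold in the untreated pair of replicate 2 had a median log2 difference of 0.69 in the treated pair, where 8 of them had the same sign. Among them, 28 were higher at least 2-fold in the treated pair, which is 19.4% of the 144 and 59.6% of the 47 higher there. In replicate 1 these 28 had a median log2 difference of 0.21, between -0.56 and 0.97, and over all 7 arrays their estimates lay between -0.23 and 0.32.

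ARA12, a subtilisin-like protease, had this pattern. It read 319.5 in the untreated line and 317.0 in the untreated wild type of replicate 1. In replicate 2 it read 57.3 in the untreated line against 183.7 in the wild type, but 224.8 in the treated line against 70.2 in the treated wild type. Within replicate 2 it was low in the untreated line and in the treated wild type, and the log2 difference over all 7 arrays was 0.051.

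UGT72E1, which glucosylates coniferyl aldehyde, had the same pair of low arrays, at 63.7 (line) and 110.0 (wild type). Its other arrays read 201.2 to 655.2. AT5G47030, a subunit of the mitochondrial ATP synthase, read 308.8 and 371.0 in those arrays and 809.1 to 1340.0 elsewhere. EXPA4, an expansin that loosens cell walls, read 94.3 and 186.7 in those arrays and 248.0 to 417.5 in the others. Its pair differences were 0.20, -1.97 and 0.76.

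The same arrays stood apart in a measure of RNA quality. The array carries probe sets at the 3' and 5' ends of actin, GAPDH and ubiquitin transcripts, and the 3'/5' signal ratio rises where labelled RNA lacks 5' ends. The untreated line of replicate 2 had ratios of 1.59, 1.55 and 2.19, and the treated wild type of replicate 2 had 0.876, 1.33 and 1.91, the highest and second highest on the 7 arrays for each transcript. The other 5 arrays ran from 0.251 to 0.528 for actin, from 1.05 to 1.26 for GAPDH and from 1.25 to 1.77 for ubiquitin. As a mean log2 ratio over the 3 transcripts, the line minus the wild type was 0.93 in the untreated pair of replicate 2, -0.57 in its treated pair and -0.34 in replicate 1. The untreated and treated pairs of replicate 2 also differ in dexamethasone, and so in induction of the fusion, with a single line array each. Induction and RNA quality thus cannot be told apart there, and the part of either in the differences between pairs was not tested. With this ratio added to the model beside the block, limma called 5 probe sets, namely the probe set called before and 265456_at as higher, and the unpaired lower probe set and those of AT4G22450 and AT5G38910 as lower. With both arrays left out it called 6, of which 2 were higher and 4 lower. Both fits had fewer residual degrees of freedom than the 3 of the main model. The fit without both arrays held no matched pair of line and wild type in replicate 2.

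**Figure D3:**
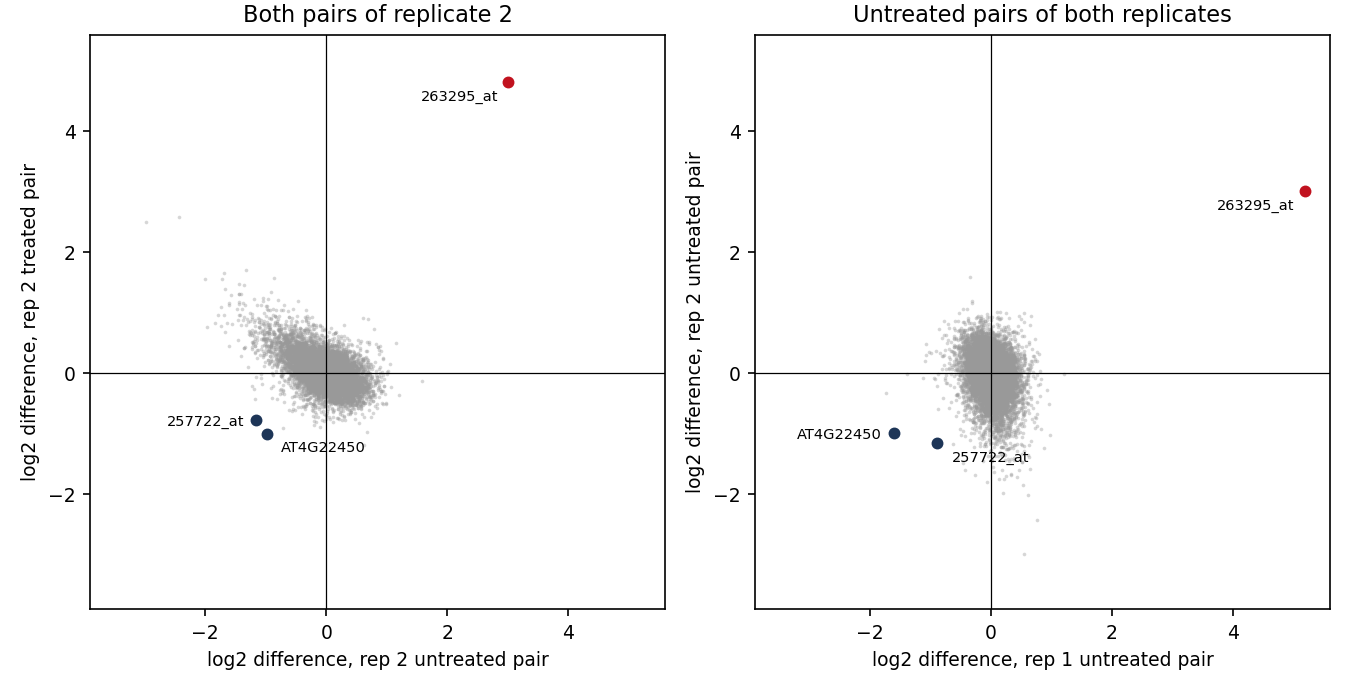
Log2 difference of line minus wild type for each of 10183 probe sets, plotted for the untreated (x) and treated (y) pairs of replicate 2 on the left, and for the untreated pairs of replicate 1 (x) and replicate 2 (y) on the right. The left cloud slopes downward (r = -0.537), while the called probe set lies high and AT4G22450 and the unpaired lower probe set lie low on both axes.

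Whether the line's difference itself changed between replicates was asked with a line-by-replicate term, on 2 residual degrees of freedom. The treated line array was in replicate 2 only, and the model held no term for dexamethasone in the line. Replicate and dexamethasone in the line thus cannot be told apart by this term. No probe set passed an adjusted p of 0.05 in limma (0.0%), and 159 (1.56%) had an unadjusted p under 0.05. The gene with the smallest p, AT1G52820, a dioxygenase of the 2-oxoglutarate type, read 185.1 in the untreated line and 105.0 in the untreated wild type of replicate 1. In replicate 2 it read 128.2 against 221.1 untreated and 120.9 against 241.3 treated. Its line difference was thus 0.73 in replicate 1 and -0.72 and -0.91 in replicate 2, a change of -1.59 ± 0.24 (SE) on the log2 scale with a limma adjusted p of 1.00.

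AT2G15560, which passed the filter only through the wild type (line mean 42.3), differed the other way. Its line arrays read 38.3, 39.9 and 48.6, close together, while the wild type read 165.9 and 220.3 in replicate 1 and 54.4 and 51.8 in replicate 2. Its pair differences were -1.74, -0.33 and -0.07. GAT1_2.1, a glutamine amidotransferase family member, had pair differences of -0.81, 0.28 and 0.47. OCT1, a carnitine transporter, had -0.22, 0.58 and 0.54. AT5G40450 and AT5G23760 also moved from below to above 0, at -0.71 and -0.38 in replicate 1. The line-by-replicate adjusted p in limma was 1.00 for each of these genes.

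Of 28 lists of gene families and pathways, 18 had a matched probe set and 13 had 3 or more tested members, 114 probe sets in all. None of the 114 passed the adjusted threshold, against 0.00982% of all tested probe sets, and 3 had an unadjusted p under 0.05, beside 1.59% of all tested probe sets. The list medians of the log2 difference ran from -0.15 to 0.17, beside 0.0018 over all tested probe sets. Of the 114 members, 15 (13.2%) had the same sign in all 3 pairs, against 14.3% of all tested probe sets.

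The MADS-box list had 42 probe sets, of which 4 were bright enough to be tested. AGL18 passed the filter only through the line. It read 46.7, 53.0 and 69.3 in the line and 39.1 to 50.5 in the wild type, and was the only one with a single sign in all 3 pairs, at 0.19, 0.14 and 0.36. AGL21 read 59.9, 76.3 and 55.6 in the line and 67.2, 35.2, 50.5 and 63.0 in the wild type (untreated replicates 1 and 2, treated replicates 1 and 2). Its log2 difference of 0.23 ± 0.19 (SE) was -0.14 without the untreated wild-type array of replicate 2. AGL16 had a log2 difference of 0.12 ± 0.12 (SE) and AGL26 of -0.13 ± 0.11 (SE). The list median was 0.17, and -0.036 without that same wild-type array.

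Nitrate response genes showed no difference past the threshold either, with 6 tested of 8 probe sets and 0 with a single sign in all 3 pairs. AT3G25790, AT1G25550 and AT1G68670, related GARP-type transcription factors of the nitrate response, had log2 differences of 0.18 ± 0.12, 0.14 ± 0.12 and -0.06 ± 0.12 (SE). AT2G26690, a transporter of the NRT1/PTR family, read 122.2, 200.1 and 166.9 in the line and 175.5, 117.8, 146.2 and 141.6 in the wild type (untreated replicates 1 and 2, treated replicates 1 and 2). It was lower in the line in replicate 1 and higher in replicate 2, at -0.47, 0.69 and 0.22. AT5G64100, a class III peroxidase, was bright at 1365.6 to 2257.5 over the 7 arrays and had a log2 difference of -0.15 ± 0.11 (SE). PGM was at 0.09 ± 0.13 (SE).

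In the auxin response list, GH3.3, which conjugates auxin to amino acids, was 1 of the 3 list members with an unadjusted p under 0.05. It read 1071.7, 410.5 and 470.2 in the line and 920.7, 351.0, 850.8 and 360.0 in the wild type (untreated replicates 1 and 2, treated replicates 1 and 2). The line was higher by 0.22, 0.22 and 0.37 in the 3 pairs, a log2 difference of 0.29 ± 0.11 (SE) with a limma adjusted p of 1.00. Each array of replicate 1 was brighter than any of replicate 2. LBD16, a transcription factor of lateral root initiation, had pair values of 0.27, 0.39 and -0.38.

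Expansins, which loosen cell walls, held the other 2 such members. EXLA1 read 370.8, 471.0 and 372.9 in the line and 287.8 to 326.0 in the wild type, without overlap, and its log2 difference was 0.38 ± 0.13 (SE). EXPA18, an expansin of root hairs, read 179.1, 194.1 and 200.1 in the line, but in the wild type 193.6 and 177.4 in replicate 1 and 307.1 and 313.1 in replicate 2. Its log2 difference of -0.40 ± 0.14 (SE) came from pair values of -0.10, -0.62 and -0.61. Limma gave an adjusted p of 1.00 for both. The median over 9 tested expansins was 0.20 in replicate 1, -0.62 in untreated replicate 2 and 0.25 in treated replicate 2, and EXPA7, also of root hairs, had pair values of 0.15, -0.91 and 0.92. EXPA7 was the only marker of a 14-gene root list that the annotation listed, so the tissue could be checked on that gene alone, and it read 27.0 to 127.6.

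Chloroplast-encoded genes showed the widest change between pairs. Their 21 tested probe sets had a median log2 difference of -0.10 in replicate 1, -0.36 in untreated replicate 2 and 0.78 in treated replicate 2, and none kept a single sign in all 3. atpB, a subunit of the chloroplast ATP synthase, read 483.9 in the untreated line and 414.2 in the untreated wild type of replicate 1. In replicate 2 it read 24.9 against 86.7 untreated and 132.2 against 29.6 treated. psbF, of photosystem II, had pair values of 0.97, -1.02 and 1.00. The one listed marker of green shoot tissue out of 11, RCA, read 103.6 to 234.6 over the 7 arrays, with pair values of -0.12, 0.03 and 0.44. The part of plastid RNA content in these values was not tested.

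Autophagy genes were mostly those of ATG8, the protein that coats forming autophagosomes. Of 10 tested probe sets, 9 were higher in the line in untreated replicate 2 and 9 were lower in treated replicate 2, with medians of 0.40 and -0.29, beside 0.045 in replicate 1. ATG8G read 119.3, 189.6 and 130.9 in the line and 120.5, 113.9, 101.4 and 147.3 in the wild type (untreated replicates 1 and 2, treated replicates 1 and 2). Its line value stood out only in the untreated array of replicate 2. ATG8F was the only list member higher in all 3 pairs, at 0.08, 0.30 and 0.05.

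Enzymes of secondary metabolism and detoxification also differed between the pairs of replicate 2, but not all in the same direction. The 20 UDP-glycosyltransferases had medians of 0.017, -0.23 and 0.14 in the 3 pairs, and the 7 cytochromes P450 had 0.19, 0.31 and -0.31. Among 11 glutathione transferases, GSTU25 read 159.6 to 171.6 in the line and 179.2 to 197.2 in the wild type, without overlap, and its log2 difference was -0.19 ± 0.11 (SE). The 4 histone probe sets had medians of -0.46, 0.34 and -0.24, and the 4 WRKY transcription factors 0.16, -0.35 and 0.36. In each of the 13 lists, the medians of the untreated and treated pairs of replicate 2 had opposite signs. Some lay near 0, such as those of the auxin response list at 0.084 and -0.0036. The pairs also went opposite ways over all tested probe sets (r = -0.537), so the pattern is not particular to the lists. The mean log2 3'/5' ratio differed by 0.93 and -0.57 in those pairs, and by -0.34 in replicate 1. List medians of replicate 1 had the treated pair's sign in some lists, such as histones, and the opposite in others, such as cytochromes P450. The part of these ratios, or of dexamethasone in the line, in the list medians was not tested.

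**Figure D4:**
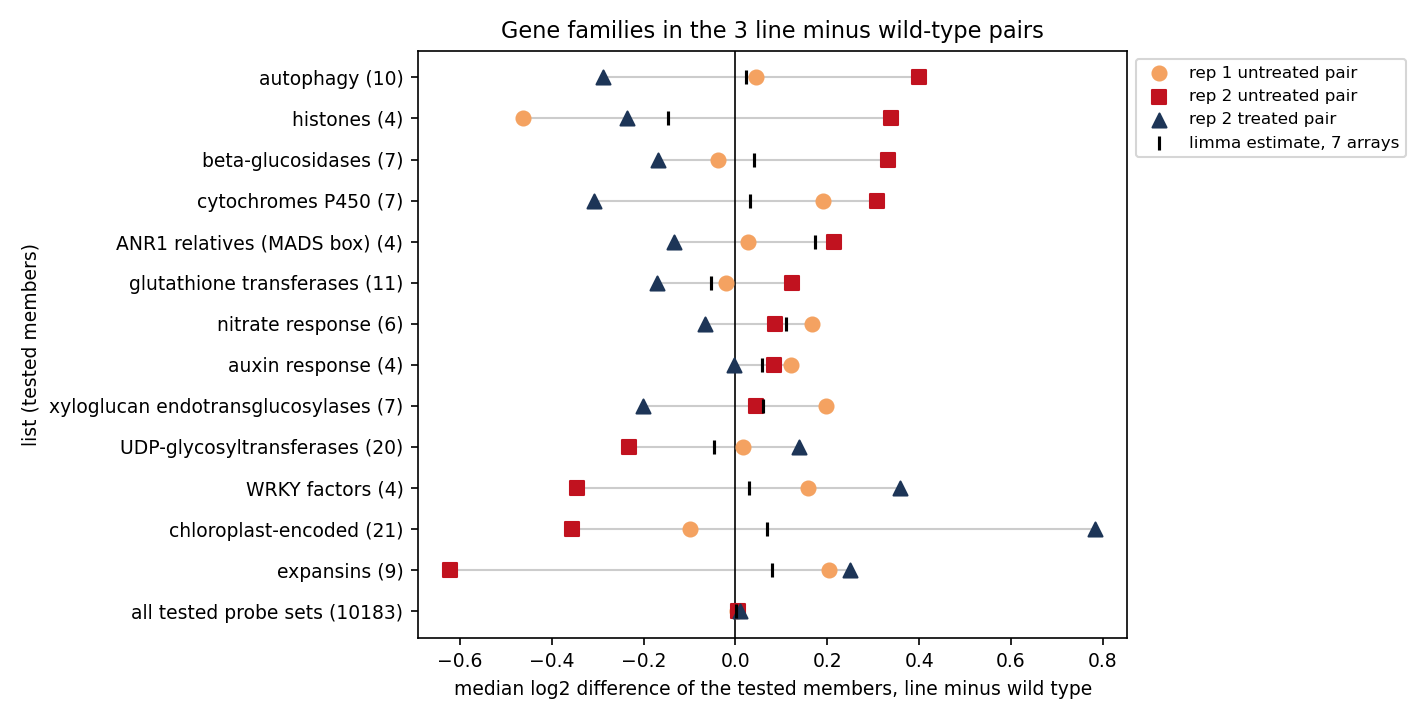
Median log2 difference of line minus wild type over the tested members of 13 lists (number in brackets) and over all tested probe sets, for each of the 3 pairs and for the limma estimate over 7 arrays. In every list the untreated and treated pairs of replicate 2 lie on opposite sides of 0, while the limma medians lie between -0.15 and 0.17.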

How the data were processed

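All 7 arrays were one-colour Affymetrix ATH1 arrays of root RNA. The authors deposited intensity values on a linear scale, 1 for each of 22810 probe sets on every array. The method of probe summary and scaling is not given in the sources used here. Their scale was kept, 64 control probe sets were left out, and the 10183 probe sets with a mean signal of at least 50 were tested on log2(signal + 16). Models were fitted in limma 3.58.1 (R 4.3.3; lmFit, then eBayes with the trend option), with line, dexamethasone and the replicate number as terms, 3 residual degrees of freedom and a Benjamini-Hochberg adjusted p of 0.05 over all tested probe sets, two-sided. Replicates are separate biological samples per the labels, and precision is limited by how few arrays there are.

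Arrays were paired by the replicate numbers in the labels. Deviations from the group means correlated across probe sets. The r was 0.622 (untreated and treated wild type), 0.472 (untreated wild type and untreated line) and 0.826 (treated wild type and untreated line). The highest r was between the groups whose replicate 2 arrays had the highest 3'/5' ratios, and the part of RNA quality was not tested. The replicate block was part of the model stated for the comparison and was not chosen from these values. On simulated data with 10183 probe sets, the line comparison called 73 of 100 changed by 1 and 94 of 100 changed by 2 on the log2 scale, and 3 of 9983 unchanged ones. The simulated noise was drawn independently for each probe set and array around the additive model. It held no differences between whole arrays, so these counts do not give the share that would be called in the real data.

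The platform annotation gives 1 gene for 13513 probe sets and several for 503, and 8794 are not in it. RefSeq (TAIR10.1) held the gene ID of 13436 of those with 1 gene. Members and lists were chosen with earlier results of these data known. The rule named probe sets past the threshold; 263295_at, 257722_at and AT4G22450, known from those results; genes with the same direction in all 3 pairs by smallest p, up to 6 per direction where fewer than 6 reached 0.5 in each; up to 2 probe sets per direction without a gene; up to 3 members per list with 3 or more tested; tested MADS-box and nitrate genes; and the 6 genes with the smallest line-by-replicate p. Examples of genes that differed between pairs of replicate 2 (ARA12, UGT72E1, AT5G47030, EXPA4, atpB and psbF), EXPA7 and RCA as tissue markers, and 266690_at, fall outside the rule or were chosen after their values were seen. The probe set past the threshold is 263295_at, and the unpaired lower one in the count over 3 pairs is 257722_at. Alternatives were other normalizations, offsets, filters, models and subsets of arrays.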

Additional observations from a re-analysis of the deposited data

How the results depend on the processing

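Of 66 named probe sets, 49 kept their direction under every alternative run. Among the 66, 17 were named for a single direction in all 3 pairs of these same arrays, a choice that favours a stable direction. The count has no share over all tested probe sets beside it. The number past the threshold, 1 as reported, was 0 with no replicate block (the called probe set then had a limma adjusted p of 0.0524), 0 with no filter on low signals (0.221), 2 without the dexamethasone term, 5 when the 3'/5' ratio joined the block as a term and 6 without both arrays of highest ratio, the last an alternative chosen after seeing the data. The fits with the ratio term and without both arrays had fewer residual degrees of freedom than the 3 of the main model. Leaving out 1 array at a time gave 0 to 2. With no replicate block 55 of 10183 had an unadjusted p under 0.05. With no filter it was 700 of the 22810 deposited probe sets less 64 controls. The line-by-replicate count stayed 0 in every alternative that could be fitted, with 23 to 1079 unadjusted; it could not be fitted without the untreated line array of replicate 1. The count with the same direction in 3 pairs, 5 as reported, was 11 with no filter and 1 at a size of 1 in place of 0.5. Without a cause being tested, log2 differences changed sign as follows. With untreated arrays only they were -0.027 for rpl22, 0.022 for UGT73D1, 0.0077 for AT1G52820, -0.15 for WRKY22 and 0.016 for WRKY47. With replicate 2 only they were 0.049 for ccsA, 0.0070 for HTB1, -0.098 for WRKY22 and 0.38 for GAT1_2.1. Without both arrays of highest ratio they were -0.026 for AT5G40450, 0.20 for AT1G52820, -0.035 for AT2G26690 and 0.021 for AT1G68670. With no replicate block WRKY22 was at -0.13. Leaving out 1 array at a time gave ranges of -0.027 to 0.80 for rpl22, -0.42 to 0.022 for UGT73D1, -0.14 to 0.36 for AGL21, -0.42 to 0.049 for ccsA, -0.083 to 0.32 for ATG8G, -0.45 to 0.0070 for HTB1, -0.10 to 0.38 for BGLU46, -0.0063 to 0.26 for BGLU40, -0.11 to 0.65 for AT5G40450, -0.055 to 0.33 for LBD16, -0.81 to 0.016 for AT1G52820, -0.043 to 0.24 for APG8A, -0.13 to 0.45 for AT2G26690, -0.15 to 0.020 for AT1G68670, -0.15 to 0.41 for WRKY22, -0.26 to 0.38 for GAT1_2.1 and -0.048 to 0.032 for WRKY47.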

Other observations

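When no filter was applied, no probe set too dim for the filter passed (lowest limma adjusted p 0.137). The ones of smallest p are given here. Signals of the lower genotype lay near the bottom of the scale. The share of all dim probe sets whose arrays did not overlap was not counted. The probe set with that p, paired with no gene, read 0.4 and 0.6 in the untreated line arrays of replicates 2 and 1 and 3.7 in the treated one, but 29.0 to 40.0 in the wild type. AT1G19650 read 4.5 to 10.6 in the line and 23.2 to 36.6 in the wild type. AT4G03580 read 1.1 to 5.2 in the line and 11.8 to 18.8 in the wild type. AT4G29030 lay the other way, at 10.3 to 13.5 in the line and 2.7 to 7.4 in the wild type. These were named after their values were seen, as the lowest unadjusted p among genes below the filter.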
